A study of Homo sapiens with 8 samples.

Results

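The genes described here are those whose single annotated symbol starts with SRSF, HNRNP, SNRP, SF3A, SF3B or PRPF, that is, genes of SR proteins, hnRNP proteins, snRNP proteins and core spliceosome factors. Membership rests on the symbol alone, though the prefixes were chosen with earlier results of these data known. Each gene was represented by its brightest probe set, the one with the highest mean log2 signal. There were 56 such genes of 11963 named genes on the larger array type, and 46 of 7713 on the smaller one. By class, 9 were SRSF genes, 19 HNRNP genes, 11 SNRP genes, 8 SF3A or SF3B genes and 9 PRPF genes. MRC5 cells, a line of diploid fibroblasts from human foetal lung, received 10 µM 8-oxoguanine, the free base that arises when guanine is oxidised, or its solvent alone (mock). At 12 h, 3 arrays of treated cells were set against 3 of mock-treated cells, all on the smaller array type, and the labels call the 3 of each group extracts that are technical replicates. At 6 h, 1 array of treated cells was set against 1 of mock-treated cells on the larger array type. Each time has its own mock, and p-values at 12 h measure only the spread between these extracts.

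Splicing removes introns from transcripts of RNA polymerase II. The spliceosome is built on each intron from small nuclear RNPs: U1 binds the 5′ splice site, U2 the branch point, and the U4/U6.U5 tri-snRNP joins before catalysis. SR proteins mostly bind exons and promote the use of nearby splice sites, while many hnRNP proteins oppose them or package the nascent transcript. Many SR and hnRNP genes control their own mRNA level through poison exons that send the transcript to nonsense-mediated decay.

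Arrays were scaled to a common level, with a trimmed mean of 500.1 to 500.5 on each of the 8. All 11 fibroblast markers on the 12 h arrays and all 14 on the 6 h arrays passed the limit on dim probe sets. At 12 h, 3 of the 11 passed the limma test: LUM rose by 1.07 on the log2 scale (SE 0.17, adjusted p = 0.00340), PDGFRB rose by 0.30 (SE 0.08, 0.0446) and S100A4 fell by 0.58 (SE 0.09, 0.00302). Of 16 markers of epithelial, endothelial, blood, muscle and alveolar cells, 3 passed the limit on dim probe sets at 12 h. The summed signal of all 16 was 705 to 768 on treated arrays and 891 to 966 on mock arrays. Of the 3 past the limit, 1 fell (KRT19, an epithelial keratin, log2 fold change -1.27, SE 0.17, limma adjusted p = 0.00145). The mean signal of KRT19 was 116 on treated and 277 on mock arrays, so this gene holds most of the gap in the sums. PECAM1 and SFTPC, also past the limit, did not pass the test, with log2 fold changes of -0.26 and 0.22. At 6 h, 1 of the 16 passed the limit, and the summed signal of all 16 was 1127 on the treated and 1192 on the mock array. The summed fibroblast marker signal there was 144427 for treated and 80172 for mock cells. By the 12 h probe sets, COL1A1 had a 6 h log2 ratio of 0.91, COL1A2 1.04 and VIM 1.31. On quantile normalised values these were 0.05, 0.09 and 0.48. COL3A1 and LUM were below 0, at -0.21 and -0.39, and at -0.38 and -0.36 on quantile normalised values. The actin 3′/5′ signal ratio, a sign of RNA quality, was 0.999 to 1.07 on treated and 0.889 to 0.995 on mock arrays at 12 h, without overlap. That of GAPDH overlapped, at 0.802 to 0.843 on treated and 0.779 to 0.826 on mock arrays. The part of these differences in the results on splicing genes was not tested. Whether fewer cells or less RNA per cell gave a lower signal cannot be told apart in bulk RNA.

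At 12 h, 45 of the 46 genes passed the limit on dim probe sets and were tested, and 6 of them passed the threshold of an adjusted p under 0.05. SRSF5 and SRSF6 rose, and HNRNPDL, HNRNPAB, SNRPG and SNRPF fell. The limma test called 13.2% of all 5248 probe sets kept and 13.1% of the 4670 named genes. It called 6.49% of named genes higher and 6.64% lower in treated cells. The 6 of 45 are thus a share near that of all genes. In 13 of the 45 the treated and mock signals did not overlap, against 33.8% of all named genes. The log2 fold change was above 0 in 15 of the 45 and below 0 in 30, with a median of -0.04 beside 0.005 over all named genes. The change furthest from 0 among the 6 was that of SRSF5, a log2 fold change of 0.68.

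**Figure D1:**
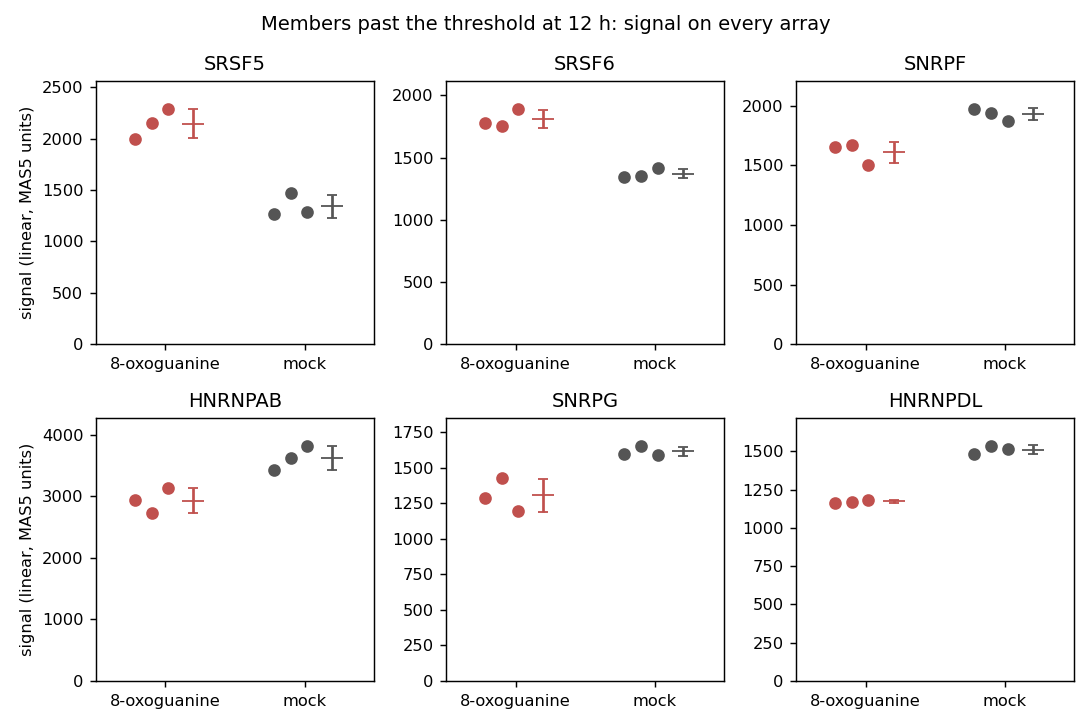
Signal (linear, in the units of the deposited MAS5 values) of the 6 splicing genes past the threshold at 12 h, with treated arrays on the left and mock arrays on the right of each panel. Points are single arrays, and the bar beside them is the mean ± SD of 3 arrays. In each panel the 3 treated arrays lie on one side of the 3 mock arrays.

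The 250 bases before the annotated start are shown for the 4 of these 6 genes that have a single start in RefSeq, since they let a reader compare genes that rose with genes that fell. They are from RefSeq on build GRCh38.p14, on the gene's strand, which is the plus strand for each, and 50 of the 56 genes had an entry. Capitals mark 6 motifs searched on both strands: the E-box CACGTG, the CCAAT box CCAAT, the GC box GGGCGG, the TATA box TATAAA, the ETS motif CCGGAAG and the cyclic AMP response element TGACGTCA.
SRSF5, rose, chr14:69766892-69767141: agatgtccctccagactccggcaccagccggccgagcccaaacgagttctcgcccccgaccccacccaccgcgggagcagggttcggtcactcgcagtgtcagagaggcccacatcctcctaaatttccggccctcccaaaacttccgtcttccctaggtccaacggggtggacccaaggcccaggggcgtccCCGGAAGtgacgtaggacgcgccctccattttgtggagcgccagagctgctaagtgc
SRSF6, rose, chr20:43457646-43457895: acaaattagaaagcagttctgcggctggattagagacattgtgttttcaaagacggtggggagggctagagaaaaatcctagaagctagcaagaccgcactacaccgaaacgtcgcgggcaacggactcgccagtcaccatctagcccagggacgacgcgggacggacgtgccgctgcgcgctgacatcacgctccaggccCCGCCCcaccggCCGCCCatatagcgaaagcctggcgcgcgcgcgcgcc
HNRNPAB, fell, chr5:178204283-178204532: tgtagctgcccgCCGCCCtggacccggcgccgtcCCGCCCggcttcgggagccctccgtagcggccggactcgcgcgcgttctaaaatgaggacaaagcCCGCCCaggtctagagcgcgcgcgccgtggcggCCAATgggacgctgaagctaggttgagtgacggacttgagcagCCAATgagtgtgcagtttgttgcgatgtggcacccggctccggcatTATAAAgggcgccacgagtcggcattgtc
SNRPF, fell, chr12:95858702-95858951: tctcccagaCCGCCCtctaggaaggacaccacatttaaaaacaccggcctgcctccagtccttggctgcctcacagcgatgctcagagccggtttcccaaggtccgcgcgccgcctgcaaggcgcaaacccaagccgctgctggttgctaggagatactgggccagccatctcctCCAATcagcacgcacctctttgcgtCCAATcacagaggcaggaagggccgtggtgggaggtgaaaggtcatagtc

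SRSF5 holds 1 ETS motif, whose first base lies 57 bases before the start, and none of the other 5. SRSF6 holds 2 GC boxes, 49 and 37 bases before the start. HNRNPAB holds 2 CCAAT boxes, at 118 and 75 bases, 3 GC boxes, at 238, 216 and 151, and a TATA box at 29. SNRPF holds 2 CCAAT boxes, at 75 and 50 bases, and a GC box at 241. Of these 4 windows, those of HNRNPAB and SNRPF hold the CCAAT box, and HNRNPDL and SNRPG, which also fell, are not shown. The CCAAT box stands in 32% of all 35116 promoters of this length and in 40% of the 70 promoters of the splicing genes. The ETS motif stands in 28.6% of the splicing gene promoters and 8.52% of all, the GC box in 48.6% and 42.6%, the E-box in 11.4% and 6.34%, and the TATA box in 10% and 10.7%. The cyclic AMP response element stands in none of the 70 and in 1.65% of all. These matches are letters in a window and not sites shown to be used.

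Of the 8 SRSF genes at 12 h, 2 rose and 6 did not pass the test. SRSF5 had a signal of 1999.8, 2152 and 2286 on the treated arrays, against 1267, 1468 and 1285 on the mock arrays. All treated arrays were above all mock arrays, and the log2 fold change came to 0.68 (SE 0.08, limma adjusted p = 0.00111). SRSF5 is an SR protein that favours exon inclusion and was found in rat liver as an insulin-induced gene. SRSF6 had 1781, 1755 and 1888 on the treated arrays, against 1347, 1352 and 1414 on the mock arrays. Again the groups did not overlap, at 0.40 on the log2 scale (SE 0.07, limma adjusted p = 0.00530). SRSF6 is a further SR protein, whose known targets include the transcript of the neuronal protein tau.

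SRSF11, an SR-related protein, had the next highest log2 fold change of the class. Its signals were 997, 966 and 814 on treated arrays and 941, 659 and 735 on mock arrays, which overlap (log2 fold change 0.26, SE 0.13, limma adjusted p = 0.241). SRSF1, the founding member of the family, was spread widely, with 519, 739 and 578 on treated arrays and 442, 647 and 785 on mock arrays. SRSF7, which also acts in mRNA export, was the steadiest, with 613, 597 and 603 on treated arrays and 618, 619 and 606 on mock arrays. The log2 fold changes of SRSF1 and SRSF7 were -0.01 and -0.02, those of SRSF4 and SRSF3 were 0.04 and 0.03, and the lowest of the class was SRSF10, a splicing repressor when dephosphorylated, at -0.09 (SE 0.12, limma adjusted p = 0.654).

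A further 3 probe sets carry an SRSF symbol beside a second gene symbol and were left out by the rule, so no gene is named for them. In contrast to SRSF5 and SRSF6, all 3 fell at 12 h. The brightest had 2213, 2163 and 2041 on treated arrays, against 2809, 2811 and 2813 on mock arrays (log2 fold change -0.39, SE 0.06, limma adjusted p = 0.00417). The next had 1638, 1627 and 1749 on treated arrays, against 1968, 2019 and 1996 on mock arrays (log2 fold change -0.26, SE 0.07, limma adjusted p = 0.0324). The dimmest had 1411, 1556 and 1294 on treated arrays, against 2013, 2031 and 1766 on mock arrays (log2 fold change -0.45, SE 0.09, limma adjusted p = 0.0109). The counts of the SRSF class at 12 h therefore depend on whether these probe sets are counted. Among single-symbol genes 2 were higher and 0 lower, while the 3 probe sets with several symbols were lower. The test called 13.2% of all probe sets in either direction. Whether the 3 probe sets read separate genes is not shown here.

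Of the 13 HNRNP genes tested at 12 h, 2 fell and 11 did not pass. HNRNPDL, a D-like hnRNP protein that controls its own splicing, had 1165, 1171 and 1181 on treated arrays, against 1481, 1535 and 1517 on mock arrays. The spread within each group was small beside the gap (log2 fold change -0.37, SE 0.07, limma adjusted p = 0.00663). HNRNPAB, an A/B-type RNA-binding protein, had 2935, 2728 and 3138 on treated arrays, against 3426, 3633 and 3822 on mock arrays. These groups did not overlap either (log2 fold change -0.31, SE 0.08, limma adjusted p = 0.0274). The call was lost without treated array 1 (adjusted p = 0.0930), treated array 2 (0.119) or mock array 3 (0.101).

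HNRNPA2B1, which packages nascent transcripts, was as low as HNRNPAB in fold but overlapped: 1436, 1579.7 and 1247 on treated arrays and 1949, 1546 and 1842 on mock arrays (log2 fold change -0.32, SE 0.11, limma adjusted p = 0.0841). The highest of the class was HNRNPA0, with 912, 928 and 638 on treated arrays and 707, 689.7 and 777 on mock arrays. Its treated array 3 lay below all mock arrays (log2 fold change 0.17, SE 0.14, limma adjusted p = 0.471), and without that array the value was 0.35 (limma adjusted p = 0.0427). HNRNPF, HNRNPU and HNRNPM did not overlap between the groups and did not pass, and they are named after their values were seen. HNRNPF, which binds G-rich RNA, had 825, 827 and 818 on treated arrays and 764, 736 and 727 on mock arrays, a log2 fold change of 0.15 (limma adjusted p = 0.225). HNRNPU, a nuclear scaffold protein, had 0.09 and HNRNPM, a splicing regulator, -0.13.

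The remaining HNRNP genes had log2 fold changes between -0.14 for HNRNPD, an AU-rich element binding protein, and 0.10 for HNRNPH1, a G-run binding protein. HNRNPK, a poly-C binding protein, had 2548, 2457 and 1635 on treated arrays and 2542, 1589.7 and 2274 on mock arrays, so 1 array of each group stood low. HNRNPC, which binds U-rich tracts, had 0.01, HNRNPR -0.03 and HNRNPL, which binds CA repeats, -0.10. HNRNPA1, a major splicing repressor, was not tested: its single probe set had signals of 73.5, 73.8 and 76.8 on treated arrays and 63.2, 70.1 and 62.2 on mock arrays, below the limit of 93.9. Among 3 probe sets with an HNRNP symbol beside another, 1 rose, an _x_at probe set with 7741, 7126 and 7694 on treated arrays, against 6527, 5813 and 6477 on mock arrays (log2 fold change 0.26, SE 0.07, limma adjusted p = 0.0446). HNRNP families include many processed pseudogenes, so probe sets of such genes may read several loci.

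**Figure D2:**
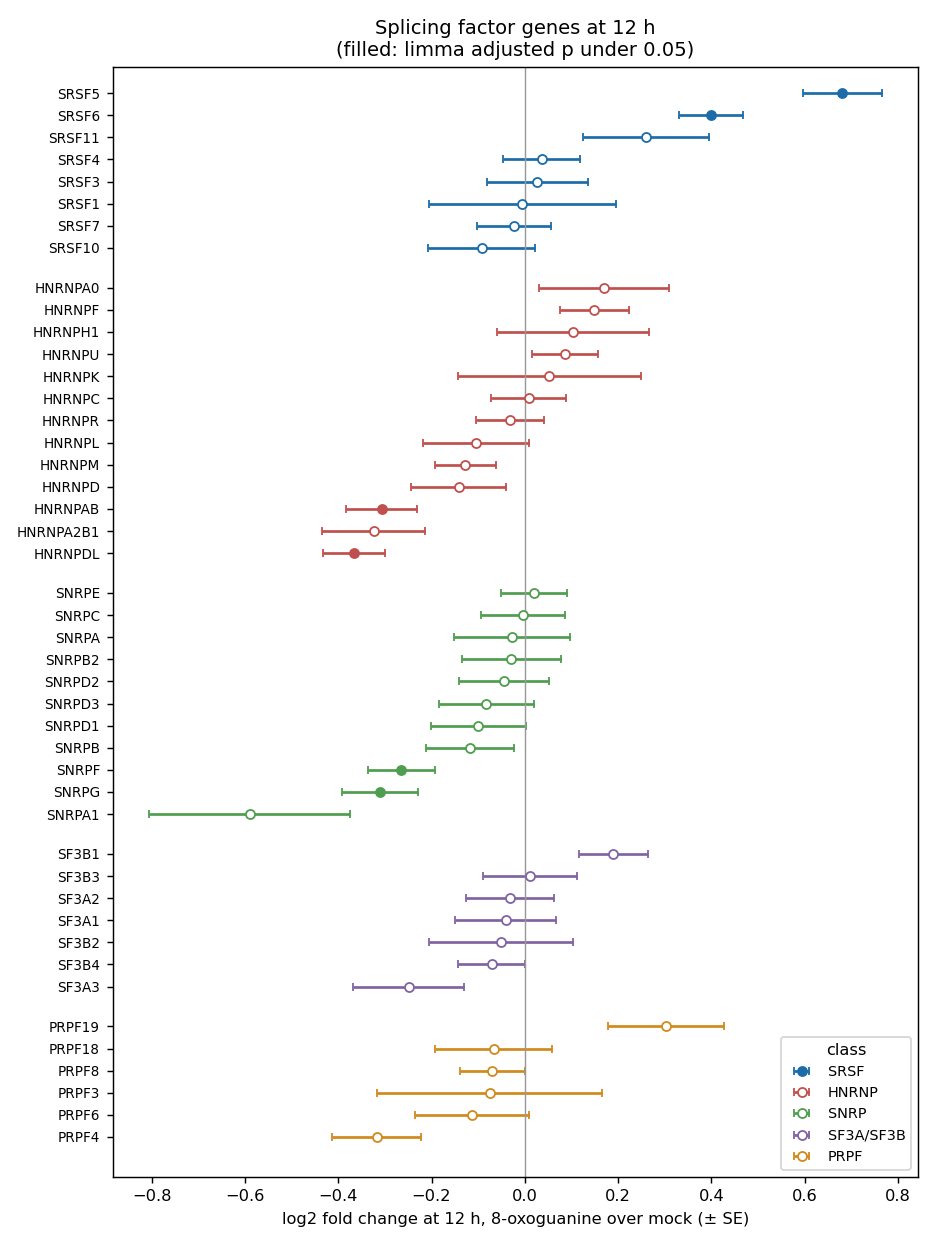
Log2 fold change of 45 splicing genes at 12 h, treated over mock, by class from the top, with bars of 1 SE from limma. Filled points passed an adjusted p under 0.05. The 2 filled SRSF points lie to the right of 0, and the 2 filled HNRNP and 2 filled SNRP points to the left.

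Of the 11 SNRP genes at 12 h, 2 fell and 9 did not pass, and 10 of the 11 log2 fold changes were below 0, with a median of -0.08. The 7 Sm proteins SNRPB, SNRPD1, SNRPD2, SNRPD3, SNRPE, SNRPF and SNRPG form the ring around the small nuclear RNA. SNRPG had 1287, 1432 and 1199.7 on treated arrays, against 1599.8, 1655 and 1592 on mock arrays. The groups did not overlap (log2 fold change -0.31, SE 0.08, limma adjusted p = 0.0330). SNRPF had 1655, 1667 and 1502 on treated arrays, against 1971, 1944 and 1875 on mock arrays, again without overlap (log2 fold change -0.26, SE 0.07, limma adjusted p = 0.0383). SNRPG kept its call in 1 of the 6 fits that left out an array (without treated array 2, adjusted p = 0.0328) and had adjusted p-values of 0.0670 to 0.114 in the rest. SNRPF kept its call in 0 of 6 such limma fits, with adjusted p-values of 0.0623 to 0.106.

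The other 5 Sm genes did not pass and overlapped between the groups. Their log2 fold changes were -0.12 for SNRPB, -0.10 for SNRPD1, -0.08 for SNRPD3, -0.04 for SNRPD2 and 0.02 for SNRPE. SNRPE, the highest of the class, had 1821, 1898 and 1992 on treated arrays and 1908, 1785 and 1943 on mock arrays (SE 0.07, limma adjusted p = 0.898), and its sign turned when treated array 3 (-0.01) or mock array 2 (-0.02) was left out.

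Among the U1 and U2 proteins, SNRPA and SNRPC of U1 had log2 fold changes of -0.03 and -0.005, and SNRPB2 of U2 had -0.03. SNRPA1, the U2 protein A′, had the lowest log2 fold change of the 45 and a wide spread, with 475, 476 and 318 on treated arrays and 830.5, 467 and 631 on mock arrays. Mock array 2 lay among the treated arrays (log2 fold change -0.59, SE 0.22, limma adjusted p = 0.102). Without mock array 2 the value was -0.80 with a limma adjusted p of 0.0333.

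None of the 7 SF3A and SF3B genes passed at 12 h in the limma fit, and 1 of them had an unadjusted p under 0.05, beside 28.7% of all named genes. SF3B1, the U2 subunit that contacts the branch point, had 2599, 2498 and 2287 on treated arrays and 2237, 2070.0 and 2162 on mock arrays. The groups did not overlap (log2 fold change 0.19, SE 0.07, limma adjusted p = 0.122). SF3A3, a further U2 subunit, was the lowest, with 322, 396 and 377 on treated arrays and 439.7, 466 and 393 on mock arrays (log2 fold change -0.25, SE 0.12, limma adjusted p = 0.202). SF3B4 did not overlap, at 975, 1001 and 934 on treated and 1025, 1015 and 1016 on mock arrays, a log2 fold change of -0.07. SF3B3, SF3A2, SF3A1 and SF3B2 had log2 fold changes of 0.01, -0.03, -0.04 and -0.05 and overlapped.

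None of the 6 PRPF genes passed at 12 h in the limma fit, and 2 of them had an unadjusted p under 0.05, beside 28.7% of all named genes. PRPF19, a ubiquitin ligase of the complex that activates the spliceosome, had 366, 421 and 379 on treated arrays and 344, 329.7 and 274 on mock arrays. The groups did not overlap (log2 fold change 0.30, SE 0.12, limma adjusted p = 0.142). PRPF4, a U4/U6 protein, had 638, 719 and 717 on treated arrays and 885, 925 and 779 on mock arrays, again without overlap (log2 fold change -0.32, SE 0.10, limma adjusted p = 0.0546). It passed without mock array 3 (log2 fold change -0.39, limma adjusted p = 0.0470). PRPF8, the protein at the catalytic centre, had 1348, 1275 and 1320.2 on treated arrays and 1385, 1333 and 1420.2 on mock arrays, a log2 fold change of -0.07. PRPF6, which bridges the tri-snRNP, had -0.11, PRPF18, a second-step factor, -0.07 and PRPF3, a U4/U6 protein near the limit on dim probe sets, -0.08.

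The arrays of a group differed among themselves in a way that spans classes. HNRNPK, SNRPA1, PRPF3 and HNRNPA0, among others, had their lowest treated signal on treated array 3 and their lowest mock signal on mock array 2. SRSF1 had its lowest signals on treated array 1 and mock array 1, and SF3B2 on treated array 1 and mock array 3. Over the 45 genes, the deviations from the group mean on treated array 3 and mock array 2 had a Pearson correlation of 0.64. Those on treated array 1 and mock array 2 had one of -0.51. These were the highest and lowest of all such array pairs. Treated arrays 1 and 3 had 0.46 and -0.49 with mock array 1. The genes share the arrays, and the values are a description made after they were seen. The median log2 signal of the SNRP class was 10.47, 10.48 and 10.23 on treated arrays and 10.64, 10.53 and 10.64 on mock arrays. That of the HNRNP class was 10.26, 10.26 and 10.28 on treated arrays and 10.53, 10.58 and 10.29 on mock arrays.

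The other genes of the splicing machinery, in 5 lists of 188 genes, were tested in the same fit; those past the limit on dim probe sets numbered 4 that rose, 3 that fell and 94 that did not pass, with a median log2 fold change of 0.002. Over all named genes 6.49% rose and 6.64% fell. Among 9 kinases and phosphatases that act on SR proteins, 1 rose: DYRK1A, with 0.40 (SE 0.12, limma adjusted p = 0.0476). Among 19 SR-related proteins, 1 fell: TRA2A, an exon-splicing activator, with 251, 204 and 228 on treated arrays against 308, 360.5 and 399 on mock arrays (log2 fold change -0.64, SE 0.14, limma adjusted p = 0.0155). Among 27 other RNA-binding regulators, 3 rose: SYNCRIP, an hnRNP protein by the name hnRNP Q, with 0.56, PCBP2, known as hnRNP E2, with 0.42, and CIRBP, the cold-inducible RNA-binding protein, with 0.35. A second, dimmer probe set of PCBP2 had -0.03.

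SYNCRIP had 780.0, 798 and 845 on treated arrays and 603, 457 and 599.8 on mock arrays (SE 0.12, limma adjusted p = 0.0130). Among 25 snRNP and assembly proteins, 1 fell: SNRNP70, the U1 70K protein, whose symbol is not one of the class prefixes, with 1054, 1169 and 954 on treated arrays and 1274, 1443 and 1384 on mock arrays (log2 fold change -0.37, SE 0.09, limma adjusted p = 0.0271). Among 21 catalytic, helicase and exon junction proteins, 1 fell: DDX39A, an mRNA export helicase, with -0.51 (SE 0.11, limma adjusted p = 0.0148). In the 6 fits that left out an array, DYRK1A kept its call in 1, CIRBP in 2, SNRNP70 in 2, DDX39A in 3, TRA2A in 4, and SYNCRIP and PCBP2 in all 6.

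At 6 h, with 1 array of each kind and no test, 55 of the 56 genes passed the limit on dim probe sets and 0 of 55 differed by 1.5-fold or more. Of all 6705 named genes, 7.41% did. The log2 ratio, treated over mock, was above 0 in 28 of the 55 and below 0 in 27, with a median of 0.01 beside -0.02 over all named genes. Centring each array on its median moved every ratio up by 0.12 and gave 37 above and 18 below 0. The median of the splicing genes was then 0.12, beside 0.095 over all named genes. With this centring, 3 genes reached 1.5-fold: SRSF10, SNRPD2 and SRSF7. On quantile normalised values 28 were above and 27 below 0, and 10 genes had changed sign. The pseudogene HNRNPA3P1 was below the limit, with a signal of 45.6 on the treated and 22.2 on the mock array.

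Read by the brightest probe set, the SRSF genes ran from -0.55 to 0.58 at 6 h. SRSF10 was highest, with 1678 on the treated and 1123 on the mock array (log2 ratio 0.58), and SRSF7 followed with 2495 treated and 1722 mock (0.54). SRSF11 was lowest, with 2093 on the treated and 3055 on the mock array (-0.55), and its 3 probe sets lay between -0.55 and -0.51. SRSF5 had 1456 on the treated and 1292 on the mock array (0.17), and SRSF6 1295 on the treated and 1250.2 on the mock array (0.05). SRSF1 had 0.30 and SRSF8, which has no single-symbol probe set on the 12 h arrays, -0.24. SRSF4 and SRSF3 had -0.02 and -0.09, and both were above 0 after median centring, at 0.09 and 0.02.

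Of the 18 HNRNP genes kept at 6 h, 11 were above and 7 below 0. HNRNPAB was highest, with 5498 on the treated and 4066 on the mock array (log2 ratio 0.44), and HNRNPUL1, a U-like protein, lowest, with 1237 treated and 1486 mock (-0.26). HNRNPDL had 3198 on the treated and 3707 on the mock array (-0.21). HNRNPD had 0.40, HNRNPH1 0.29 and HNRNPK 0.26 for their brightest probe sets. That of HNRNPD is an _x_at probe set, and its other 4 lay between -0.33 and -0.10. On quantile normalised values the ratios of HNRNPH1 and HNRNPK were -0.07 and -0.02, so their direction depends on the scaling. The rank of genes in the class does too. On those values HNRNPD was highest at 0.35, with HNRNPAB at 0.24, and HNRNPA2B1 was lowest at -0.33, with HNRNPUL1 at -0.21.

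Of the 11 SNRP genes, 5 were above and 6 below 0 at 6 h. SNRPD2 was highest, with 6620 on the treated and 4466 on the mock array (log2 ratio 0.57), and SNRPD1, its partner in the Sm ring, lowest, with 1651 treated and 2351 mock (-0.51). SNRPB had 0.45, SNRPF 0.35 and SNRPD3 0.19, while SNRPG had -0.16 and SNRPE -0.17. The proteins of the ring thus ran both ways at 6 h. SNRPC was at -0.35 and SNRPA at 0.24. On quantile normalised values SNRPF was highest at 0.333, with SNRPA at 0.307, SNRPD2 at 0.304 and SNRPB at 0.15. The highest gene of the class thus depends on the scaling, while SNRPD1 stayed lowest at -0.50.

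Of the 8 SF3A and SF3B genes, SF3B5, a small subunit with no single-symbol probe set on the 12 h arrays, was highest at 6 h, with 2947 on the treated and 2404 on the mock array (log2 ratio 0.29). SF3B4 was lowest, with 1364 on the treated and 1719 on the mock array (-0.33). SF3B1 had 3999 on the treated and 3365 on the mock array (0.25), and its 4 probe sets lay between 0.10 and 0.26. Of the 9 PRPF genes, PRPF8 was highest, with 2336 on the treated and 1994 on the mock array (0.23). PRPF38B was lowest, with 211 on the treated and 261 on the mock array (-0.30). PRPF39 had -0.28 and PRPF31, a U4 protein, 0.09.

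**Figure D3:**
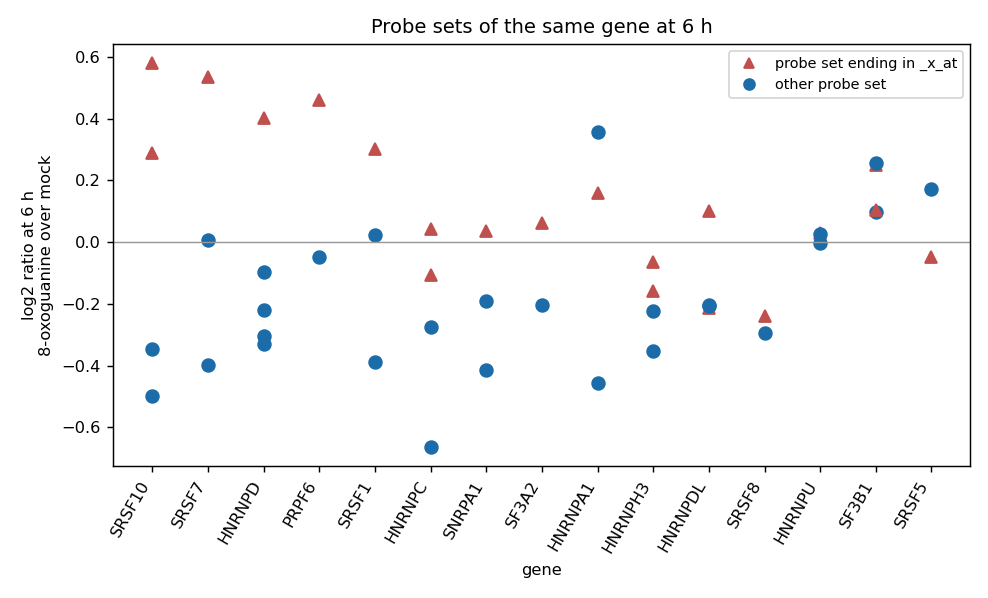
Log2 ratio at 6 h, treated over mock, of each probe set of the 15 splicing genes with both kinds of probe set, 1 array over 1 array. Triangles are probe sets whose name ends in _x_at, circles all others. For SRSF10, the triangles lie between 0.29 and 0.58 and the circles between -0.50 and -0.35.

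At 6 h, 32 splicing genes had more than 1 probe set past the limit, and in 19 of them the probe sets had both signs. The median range between a gene's probe sets was 0.29, and in 10 genes it was over 0.5. Probe sets named _x_at hold probes that can match other sequences. In 13 of the 15 splicing genes with both kinds, the _x_at mean was higher than the mean of the others, with a median difference of 0.27. Over all 473 named genes with both kinds the _x_at mean was higher in 59.8%, with a median difference of 0.09. Where the _x_at probe sets were the brighter kind, their mean was higher in 9 of 9 splicing genes and in 68.8% of all such genes. Where they were the dimmer kind, it was higher in 4 of 6 and in 49.3%. After quantile normalization it was higher in 11 of the 15 splicing genes and in 59.8% of all 473. SRSF7 had 0.54 for its _x_at probe set and -0.40 and 0.01 for the others, and SRSF1 had 0.30 against 0.02 and -0.39.

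The choice of probe set therefore set the sign of several genes at 6 h. With the probe set read at 12 h in place of the brightest, the SRSF median at 6 h was -0.37 in place of 0.05. The first of these medians covers 8 genes, without SRSF8, and the second covers 9. By the 12 h probe set, SRSF1, SRSF3, SRSF7, SRSF10 and SRSF11 lay between -0.55 and -0.35. For SRSF11 that probe set is also the brightest. The median log2 ratio was 0.16 over the brighter 28 splicing genes and -0.05 over the dimmer 27. On quantile normalised values these medians were -0.01 and 0.02. The highest signal of all probe sets was 22762 on the treated and 10699 on the mock array at 6 h. Its part in these medians was not tested.

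**Figure D4:**
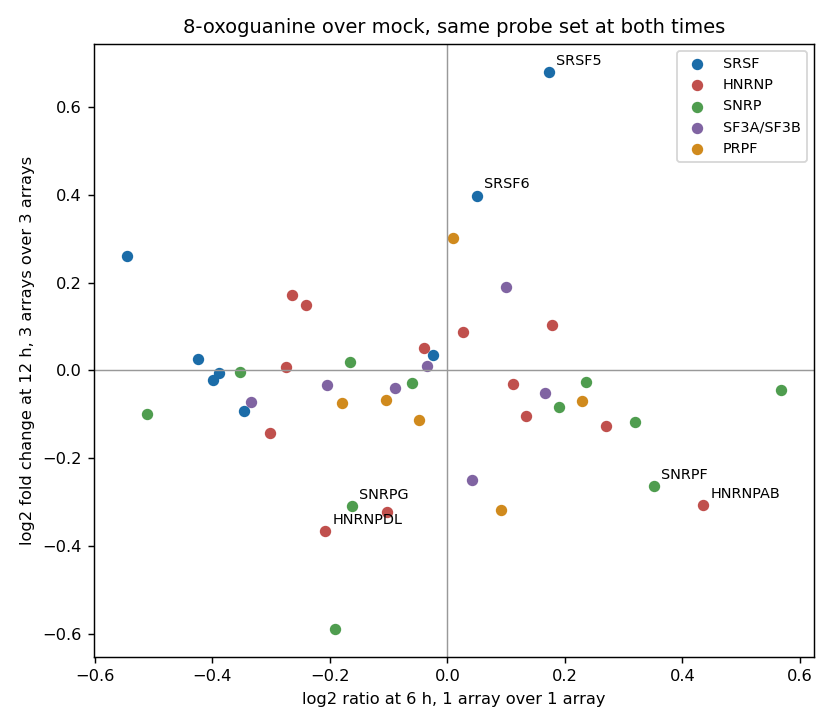
Log2 ratio at 6 h (1 array over 1 array, horizontal) and log2 fold change at 12 h (3 arrays over 3 arrays, vertical), treated over mock, for 45 splicing genes read by the same probe set. SRSF5 and SRSF6 stand at 0.68 and 0.40 on the 12 h axis, and HNRNPAB and SNRPF stand right of 0 at 6 h and below 0 at 12 h.

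For the same probe set at both times, 22 of 45 genes had opposite signs. Of the 6 genes past the threshold at 12 h, SRSF5, SRSF6, HNRNPDL and SNRPG had the same sign at 6 h, at 0.17, 0.05, -0.21 and -0.16. HNRNPAB and SNRPF had 0.44 and 0.35 at 6 h, opposite to their falls at 12 h, and lay above 0 there also on quantile normalised values, at 0.24 and 0.33. The times differ in array type and number of arrays as well, and the difference between them was not tested.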

How the data were processed

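Total RNA of MRC5 cells was hybridised to single-colour short-oligonucleotide arrays. The authors deposited a linear intensity for every probe set on each array. Per the submitters' processing notes these are MAS5 values, and which version or settings were used is not given in the sources used here. Time and treatment labels gave the groups, although the treatment protocol speaks of 6 h throughout. Precision is limited by how many arrays there were.

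The intensity was put on a log2 scale with no further scaling, after dropping control probe sets. Probe sets whose mean log2 value fell below the 40th percentile at 12 h (a signal of 93.9) were removed, which kept 5248 of 8746. For the 6 h arrays the 50th percentile served (148). The functions lmFit and eBayes (trend = TRUE) of limma 3.58.1, run under R 4.3.3, gave two-sided p-values at 12 h, adjusted by Benjamini-Hochberg over all probe sets kept, with a threshold of 0.05. At 6 h no p was computed. The code was tested on simulated data. With the 12 h spreads, the limma fit found 27 of 100 changes of 1.3-fold and 63 of 100 changes of 1.6-fold. A gene that did not pass is thus not shown to be unchanged. Gene symbols came from the platform annotation, and probe sets with several symbols or none stayed unnamed (906 at 12 h, 3151 at 6 h).

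Named genes were those past the threshold, the highest and lowest of each class, and in each further list up to 3 past the threshold with the largest change. The other genes of the classes are given for completeness, after their values were seen, as is the comparison of probe sets within a gene. Members and lists were chosen with earlier results of these data known. Alternatives were median centring, quantile normalization, other limits on dim probe sets, an added constant, averaging the probe sets of each gene, variances fitted without a trend, a replicate block and leaving out each array. The labels do not state that extract numbers pair the groups. Same-numbered arrays had deviations from the group means that correlated at 0.08, -0.15 and -0.05. Over the 45 splicing genes these correlations were 0.46, -0.34 and -0.22. With 3 arrays in each group, such values cannot decide whether the extracts were paired.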

Additional observations from a re-analysis of the deposited data

Results flagged for a closer look

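HNRNPAB and SNRPF had values of opposite sign at 6 h and 12 h. At 6 h their log2 ratios, treated over mock, were 0.44 and 0.35 from 1 array of each kind, which is short of 1.5-fold, while at 12 h all 3 treated arrays of each lay below all mock arrays. With each 12 h array left out in turn, HNRNPAB kept its limma call in 3 of 6 fits and SNRPF in 0 of 6. For the same probe set, 22 of 45 splicing genes had opposite signs at 6 h and 12 h. The trait is thus not particular to HNRNPAB and SNRPF. No test was made of the difference between 6 h and 12 h.

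Of the 8 probe sets at 12 h that carry one of the class prefixes beside a further symbol, 4 passed the limma threshold although they stand outside the named genes. Of these, 1 with an HNRNP symbol rose, with a log2 fold change of 0.26. All 3 with an SRSF symbol fell, with log2 fold changes of -0.26, -0.39 and -0.45.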

How the results depend on the processing

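SRSF5, SRSF6 and HNRNPDL kept their calls under all 14 alternatives at 12 h, with log2 fold changes of 0.63 to 0.75, 0.37 to 0.42 and -0.38 to -0.35. The number of splicing genes lower at 12 h, 4 in the main fit, was 2 with no limit on dim probe sets and 1 with no intensity trend. It was between 1 and 4 when an array was left out. Without mock array 2 it was 4, but SNRPF and SNRPG were not called and SNRPA1 was. With no intensity trend, HNRNPDL was the gene still called lower. The 4 other splicing genes that rose became 2 with median centring, 2 with no limit and 1 with no intensity trend, and between 2 and 5 with an array left out. The 3 that fell became 6 under the stricter limit and between 0 and 3 with an array left out. PCBP2 had 0.19 (limma adjusted p = 0.278) as the mean of its probe sets. PRPF4 passed with median centring (limma adjusted p = 0.0458) and under the stricter limit (0.0451). SNRPE, with no call, turned to -0.0141 without treated array 3 and -0.0172 without mock array 2, and reached 0.0507 without treated array 1. The replicate block rests on extract numbers that the labels do not state to pair the groups. With it, SNRPF (limma adjusted p = 0.0619) and DYRK1A (0.0841) were not called, and 3 splicing genes were lower in place of 4. No other gene named here lost its call with the block.

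At 6 h, the number of splicing genes 1.5-fold or more apart was 3 with median centring, 1 (SRSF10) on quantile normalised values, 1 (HNRNPA3P1) with no limit and 2 (PRPF31 and PRPF18) for the mean of probe sets, in place of 0. Class medians moved with median centring to 0.17 (SRSF), 0.19 (HNRNP), 0.054 (SNRP), 0.12 (SF3A and SF3B) and 0.043 (PRPF). The median over all named genes moved to 0.095, above those of the SNRP and PRPF classes. The HNRNP median was -0.041 on quantile normalised values, -0.13 for the mean of probe sets and -0.071 with the 12 h probe set. The SRSF median was -0.37 with the 12 h probe set too. These 12 h probe set medians cover only genes on the 12 h arrays, 14 HNRNP and 8 SRSF genes. Median centring added the same 0.12 to every ratio, and so to every class median. The cause of the other shifts was not tested. The single-symbol probe set of HNRNPA1 on the 12 h arrays was too dim to test. At 6 h the brightest HNRNPA1 probe set, a different one, had 1655 on the treated and 1483 on the mock array (log2 ratio 0.16).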
